A study of Mus musculus with 70 samples.

Results

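The 9 genes described here encode the class I histone deacetylases Hdac1, Hdac2, Hdac3 and Hdac8, the class IIa histone deacetylases Hdac4, Hdac5, Hdac7 and Hdac9, and the nuclear receptor corepressor Ncor1. They were picked by symbol, and all 9 were found among the 24346 genes of the deposited table. The samples were dorsal hippocampi of adult male C57BL/6J mice, housed singly, with 10 libraries in each of 7 groups and 5 of those 10 in each of 2 harvest cohorts collected on separate days. Groups are named by days of initial wheel running, days of sedentary delay without a wheel and days of reactivating running: 14-0-0 without a delay, 14-7-0 and 14-14-0 with a delay, 14-7-2 with a delay and a return to the wheel, 0-0-2 with brief running alone, and the sedentary 0-0-0. Mice of these 6 groups had 3 min of training in object location memory (OLM), which is below the threshold for long-term memory in sedentary mice, and tissue was taken 1 h after acquisition. The remaining group stayed in the home cage and had no OLM. Running was voluntary, and wheels were out of the cage from the night before training, so no library was made during running. In the study, 14-0-0 and 14-7-2 were the schedules that let mice learn from this training. Those memory scores came from other mice, in the authors' earlier work, and the mice sequenced here had no memory test.

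Histone deacetylases remove acetyl groups from histone tails, which packs chromatin more tightly and lowers transcription. Class I enzymes are mostly nuclear: HDAC1 and HDAC2 work within the Sin3, NuRD and CoREST complexes, and HDAC3 within the complex built on NCoR1. Class IIa enzymes have weak catalytic activity of their own, bind MEF2 factors, recruit the HDAC3 and NCoR complex, and leave the nucleus when calcium-dependent kinases phosphorylate them. In the hippocampus HDAC2 and HDAC3 are known as brakes on memory formation, and the roles of the other members in memory differ between genes.

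All 9 genes passed the minimum mean of 1 FPKM (fragments mapped to a gene, scaled by transcript length and library size), as did 12994 genes in all. Across the 70 libraries, Hdac2 had the highest mean level of the 9, at 53.96 ± 4.76 FPKM (SD). Ncor1 followed at 42.4 ± 4.53, Hdac3 at 39.7 ± 3.47, Hdac5 at 33.0 ± 9.25 and Hdac1 at 20.3 ± 2.07 FPKM. The levels of Hdac9, Hdac8, Hdac4 and Hdac7 were lower, at 9.61 ± 1.17, 7.41 ± 0.826, 5.55 ± 1.44 and 4.82 ± 1.04 FPKM. The order was steep in some places and flat in others. Hdac2 exceeded Ncor1 in 69 of 70 libraries, and Hdac1 exceeded Hdac9 in 70 of 70. By contrast Ncor1 exceeded Hdac3 in 47 of 70, Hdac3 exceeded Hdac5 in 50 of 70, and Hdac4 exceeded Hdac7 in 44 of 70, so these neighbours swapped places between libraries. Summed over the 4 genes, class I transcripts came to 119.2 ± 7.46 FPKM in sedentary mice and class IIa transcripts to 58.1 ± 11.8 FPKM (SD, n = 10). In this bulk tissue, fewer cells of a type and less RNA per cell cannot be told apart.

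**Figure D1:**
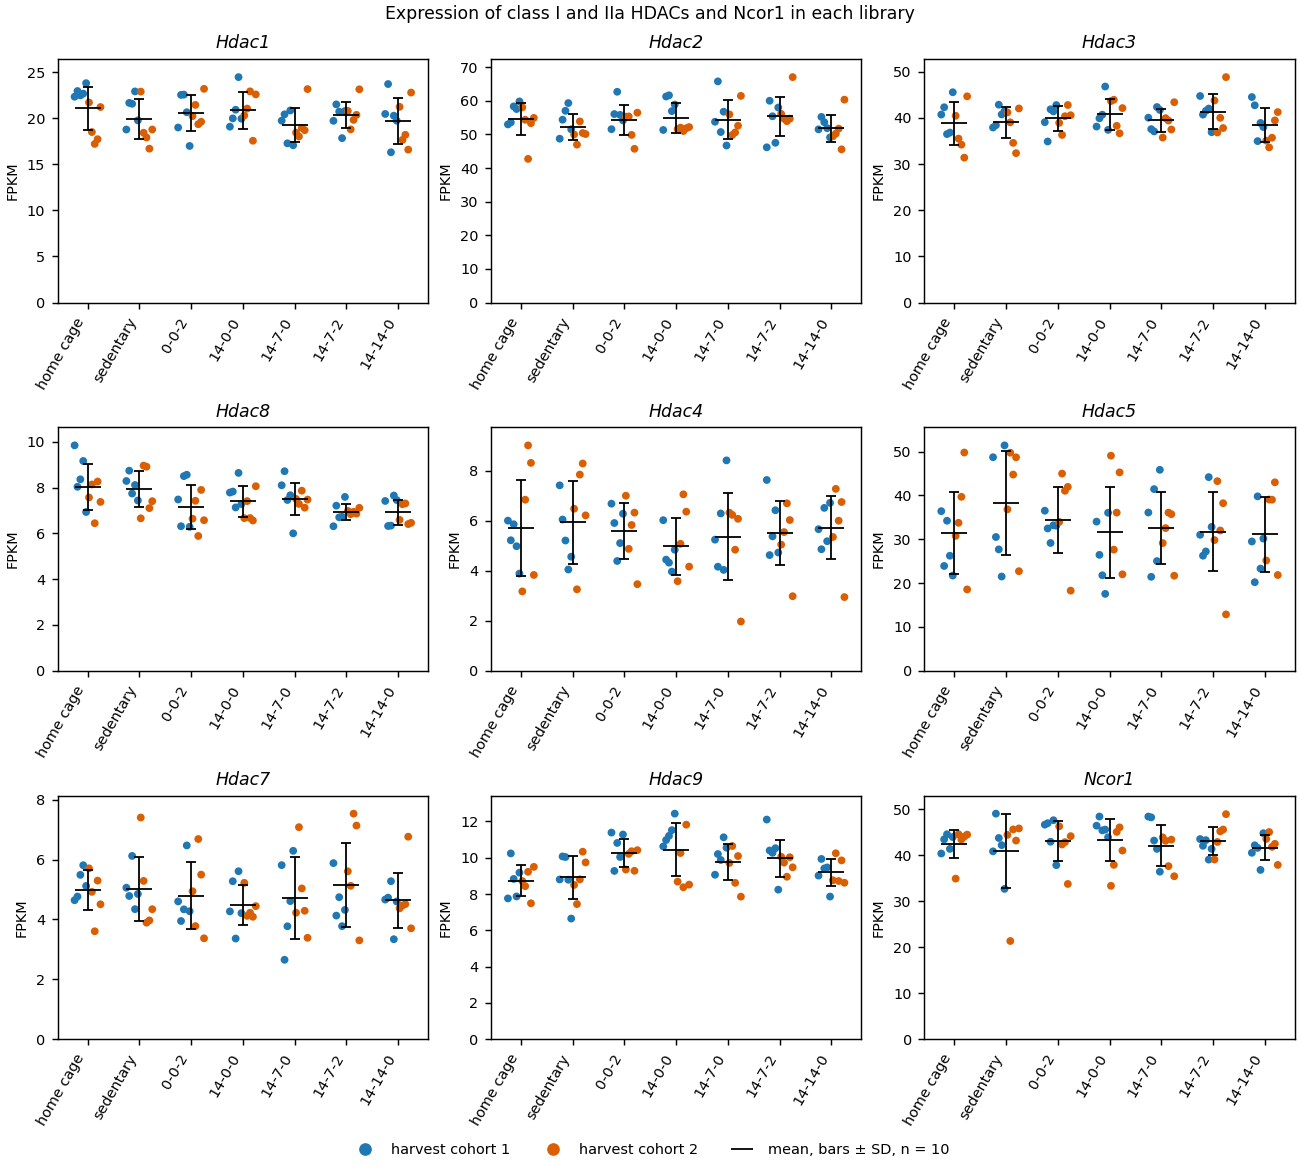
FPKM of each member (y axis, from 0) in each of the 7 groups (x axis), 1 point per library, coloured by harvest cohort, with the mean and SD of 10 libraries in black. The points of every group overlap those of every other group for all 9 genes, Hdac8 sits lowest in 14-7-2 and 14-14-0, Hdac9 sits lowest in the home cage and sedentary groups, and the Ncor1 panel has 1 sedentary library at 21.35 FPKM.

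2 libraries stood apart. Sedentary replicate 6 had excitatory neuron markers summing to 382 FPKM, where the other 9 sedentary libraries had 1696 to 2238, and dentate granule cell markers summing to 12.1 against 62.1 to 206. Its thalamus markers summed to 318 FPKM against 31.2 to 49.4, and its 7 oligodendrocyte markers all exceeded those of the other 9 libraries. Replicate 4 of 14-7-0 listed 10279 genes at 0, where the other 69 libraries listed 6243 to 7199, and low values placed its depth near 0.0372 of that of a sedentary library, against 0.342 to 1.46 for the others. Every marker gene of the lists used, the hippocampal ones included, was detected in at least 1 library. Results that rest on these libraries are given with and without them.

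The 5 exercise groups were each compared with the sedentary group, which asks how the message levels of these repressors at 1 h after training differ with exercise history. Among the 45 differences, 5 passed an unadjusted p of 0.05 and none passed after adjustment over all 12994 genes (limma, smallest adjusted p of a member 0.436). Those 5 belonged to Hdac8, which was lower, and Hdac9, which was higher. In 14-0-0 1 of the 9 members was called, in a comparison that called 9.15% of all genes tested, and in 14-7-2 it was 2 of 9 against 4.39%. In 14-14-0 it was 1 of 9 against 4.95%, in 0-0-2 1 of 9 against 2.37%, and in 14-7-0 none of 9 against 3.26%. All 5 comparisons share the same sedentary libraries, so they are not independent of each other. The median log2 difference of the 9 members lay between -0.05 and 0.06, where that of all genes tested lay between -0.01 and 0.01.

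**Figure D2:**
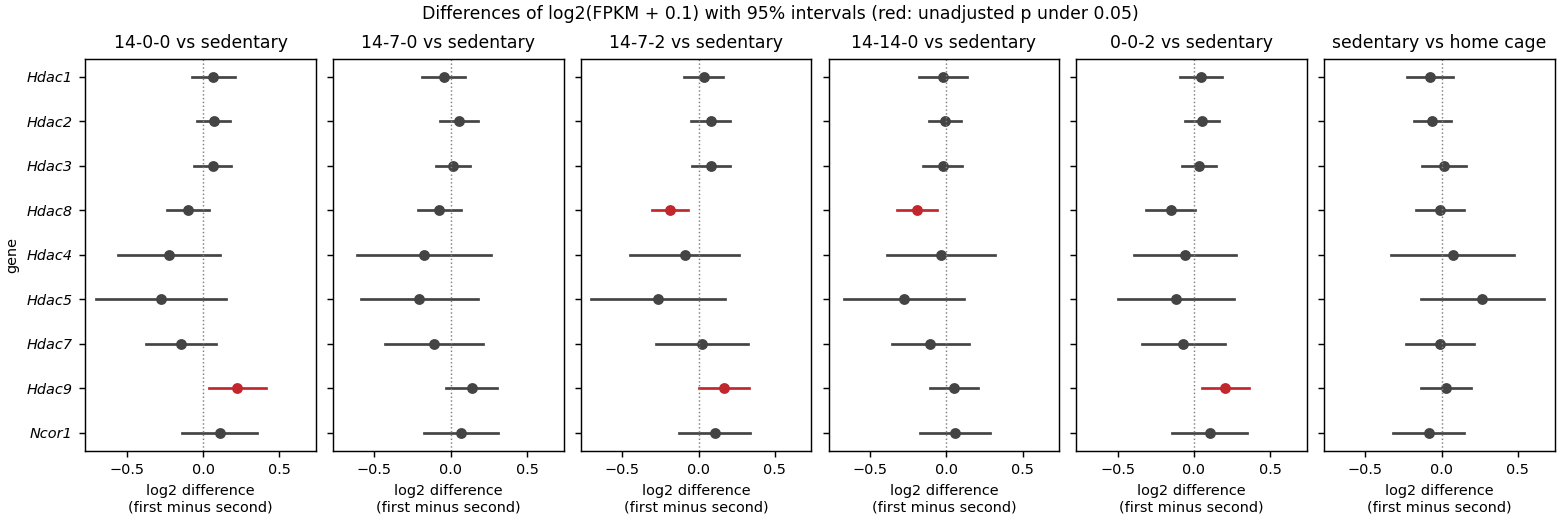
Difference of log2(FPKM + 0.1) for each member (y axis) in 6 comparisons, first group minus second (x axis, log2 units), with points for the estimate and bars for the 95% interval, red where the unadjusted p was under 0.05. The red points are Hdac8 at -0.19 in 14-7-2 and 14-14-0, and Hdac9 at 0.22, 0.17 and 0.21 in 14-0-0, 14-7-2 and 0-0-2, while the bars of Hdac4 and Hdac5 are the widest of the 9.

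Hdac1, Hdac2 and Hdac3, the class I enzymes of the large nuclear complexes, were not called in any of the 5 comparisons. Hdac2 ranged from 46.98 to 59.3 FPKM in sedentary mice with a median of 51.0. The 14-0-0 libraries lay between 51.0 and 61.7 FPKM (median 52.1), and the 14-7-2 libraries between 46.2 and 67.1 (median 55.1). Medians of the other exercise groups were 53.2 in 14-7-0, 51.6 in 14-14-0 and 55.3 in 0-0-2, over a joint range of 45.6 to 65.8 FPKM. All 10 of the 14-0-0 libraries were above the sedentary median, yet the groups overlapped over most of their range. The log2 differences of Hdac2 ran from -0.01 to 0.08, with 95% intervals within -0.12 to 0.21 and unadjusted p from 0.189 to 0.837. For Hdac1 the differences ran from -0.05 to 0.07, within intervals of -0.19 to 0.21, and for Hdac3, the partner of NCoR1, from -0.02 to 0.08, within -0.15 to 0.21. The bounds thus leave room for a rise of about 0.2 on the log2 scale in each of the 3 genes, and for a fall of 0.19 in Hdac1, 0.15 in Hdac3 and 0.12 in Hdac2. In 14-7-2 Hdac2 was higher by 0.19 in cohort 2 alone (limma, p = 0.0387), and the value was -0.03 in cohort 1 alone (p = 0.783). Hdac3 ranged from 32.4 to 42.9 FPKM in sedentary mice (median 39.9) and from 36.9 to 48.8 in 14-7-2 (median 41.1), its highest group. Hdac1 ranged from 16.7 to 22.9 FPKM in sedentary mice (median 19.3) and from 17.1 to 23.2 in 14-7-0 (median 18.8), its lowest group.

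Hdac8, a class I enzyme known for deacetylating the cohesin subunit SMC3 and encoded on the X chromosome, had lower group means after exercise in all 5 groups. Sedentary libraries ranged from 6.66 to 8.96 FPKM with a median of 7.93, and home cage libraries from 6.44 to 9.84 with a median of 8.09. In 14-7-2 the range was 6.31 to 7.59 with a median of 6.90, and in 14-14-0 it was 6.32 to 7.65 with a median of 6.93. In both groups 10 of 10 libraries lay below the sedentary median, and both still overlapped the lower sedentary libraries. Hdac8 was lower in 14-7-2 by a log2 difference of -0.19 ± 0.06 (SE; limma, unadjusted p = 0.00317, adjusted p = 0.847), or -12.2% in fold terms. It was lower in 14-14-0 by the same -0.19 ± 0.06 (unadjusted p = 0.00546, adjusted p = 0.974). The values were -0.15 ± 0.08 in 0-0-2 (unadjusted p = 0.0621), -0.10 ± 0.07 in 14-0-0 (p = 0.151) and -0.08 ± 0.07 in 14-7-0 (p = 0.275). Thus the groups with a called difference were 14-7-2, where running had resumed for 2 days, and 14-14-0, where it had stopped for 14 days. Without sedentary replicate 6, which held the highest sedentary level at 8.96 FPKM, Hdac8 stayed called in 14-7-2 (-0.17, p = 0.00588) and in 14-14-0 (-0.17, p = 0.0106). Within cohort 1 alone both were called (-0.22, p = 0.0156, and -0.20, p = 0.0487), and within cohort 2 alone, with 5 libraries a group, the limma values were -0.16 (p = 0.152) and -0.19 (p = 0.102). The study's own kind of test, Cyber-T on FPKM, gave p = 0.0559 in 14-7-2 and 0.0485 in 14-14-0. Leaving out any 1 of the 20 libraries kept both calls, with differences from -0.22 to -0.17. In 14-14-0 all 9 choroid plexus markers were higher than in sedentary mice, with sums of 111 to 24736 FPKM against 75.3 to 503 and none at 0. With their score, the mean log2 deviation of these markers, as a covariate the Hdac8 difference in 14-14-0 was -0.22 (limma, p = 0.00799). The score had a median of 1.16 in 14-14-0 and reached 0.13 at most in sedentary mice, so that fit extends beyond the sedentary scores. In 14-7-2, 2 of 4 oligodendrocyte precursor markers were lower, and their part in the Hdac8 result was not tested.

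The RefSeq promoter of Hdac8, from 250 bases before to 50 bases after its start (GRCm38.p6, chrX:102505109-102505408, minus strand), is shown because Hdac8 was the member called lower at an unadjusted p. It holds none of the motifs searched in these windows on either strand, namely the GC box GGGCGG, the cyclic AMP response element TGACGTCA and its first letters TGACG. Among 32851 promoter windows of the same length these motifs occurred in 35.7%, 1.79% and 20.8%, the last including every TGACGTCA. GC content of the Hdac8 window was 49.7%, against a median of 52.7%.
Hdac8: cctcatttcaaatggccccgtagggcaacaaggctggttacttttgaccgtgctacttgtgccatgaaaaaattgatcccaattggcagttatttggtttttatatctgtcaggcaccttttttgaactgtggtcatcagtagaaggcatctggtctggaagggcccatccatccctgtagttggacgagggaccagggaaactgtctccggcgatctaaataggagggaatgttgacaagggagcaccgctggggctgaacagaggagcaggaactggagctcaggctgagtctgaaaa

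Hdac9 was called in the other direction. It is a class IIa enzyme that also makes a short isoform without the deacetylase domain, and these gene-level values do not separate its isoforms. Sedentary libraries ranged from 6.65 to 10.3 FPKM with a median of 8.80, close to the home cage range of 7.49 to 10.2 and median of 8.78. In 0-0-2 the range was 9.27 to 11.4 with a median of 10.3, and 10 of 10 libraries lay above the sedentary median. In 14-0-0 it was 8.37 to 12.4 with a median of 10.8, and in 14-7-2 it was 8.24 to 12.1 with a median of 10.04. The groups overlapped in each case, most of all in 14-14-0, where the range was 7.86 to 10.3 and the median 9.21. Hdac9 was higher in 14-0-0 by 0.22 ± 0.09 on the log2 scale (SE; limma, unadjusted p = 0.0219, adjusted p = 0.436), or 16.8% in fold terms. It was higher in 0-0-2 by 0.21 ± 0.07 (unadjusted p = 0.0113) and in 14-7-2 by 0.17 ± 0.08 (unadjusted p = 0.0491). The difference was 0.14 ± 0.08 in 14-7-0 (unadjusted p = 0.108) and 0.05 ± 0.07 in 14-14-0 (p = 0.503). Set directly against 14-7-0, Hdac9 differed by 0.09 ± 0.08 in 14-0-0 (p = 0.288) and by 0.03 ± 0.07 in 14-7-2 (p = 0.668). All 9 choroid plexus markers were also higher in 14-0-0 than in 14-7-0, and with their score as a covariate the first of these differences was 0.23 (limma, p = 0.0095). The score reached 4.64 in 14-0-0 and 1.64 in 14-7-0, so this fit extends beyond the scores of 14-7-0.

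Of the 3 Hdac9 calls, the one in 14-7-2 was the least steady. It was lost without sedentary replicate 6 (0.14, p = 0.0905) and when any of 13 of the 20 libraries was left out in turn. The calls in 14-0-0 and 0-0-2 were kept whichever of the 20 libraries was left out, with differences of 0.18 to 0.26 and 0.16 to 0.23. By cohort, the 14-0-0 difference was 0.37 in cohort 1 (limma, 5 libraries a group, p = 0.00849) and 0.08 in cohort 2 (p = 0.524), and the test of that gap gave p = 0.113. The 0-0-2 difference was 0.26 in cohort 1 (p = 0.053) and 0.15 in cohort 2 (p = 0.159), and by Cyber-T it had p = 0.0656. In 14-0-0 all 9 choroid plexus markers were higher than in sedentary mice, summing to 92.4 to 18306 FPKM, with none at 0. Hdac9 was higher in 14-0-0 by 0.37 (limma, p = 0.00187) when this choroid plexus score was a covariate. The score ran from -1.74 to 4.64 in 14-0-0 (median 1.57) and from -2.0 to 0.13 in sedentary mice. That fit therefore extends beyond the scores of the sedentary libraries. With the same covariate Hdac9 was also called in 14-7-0 against sedentary (0.16, p = 0.0309), where it had not been without it. In 0-0-2, 4 of 7 oligodendrocyte markers were lower, with sums of 1363 to 3754 FPKM against 1739 to 7135 in sedentary mice, or 1739 to 3927 without replicate 6, and their part in the Hdac9 result was not tested. The promoter of Hdac9 at the start farthest upstream of 2 listed by RefSeq (GRCm38.p6, chr12:34917046-34917345, minus strand) is shown because Hdac9 was the member called higher at an unadjusted p. It too holds none of the 3 motifs, has no CG dinucleotide where the median window has 7, and is 44.0% GC.
Hdac9: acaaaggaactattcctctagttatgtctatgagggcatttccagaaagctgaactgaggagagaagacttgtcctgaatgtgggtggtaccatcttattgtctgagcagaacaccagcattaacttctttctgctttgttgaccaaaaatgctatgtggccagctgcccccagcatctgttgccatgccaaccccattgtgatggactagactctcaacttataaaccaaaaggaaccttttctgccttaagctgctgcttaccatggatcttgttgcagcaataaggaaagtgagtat

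Hdac4, Hdac5 and Hdac7, the other class IIa genes, were not called in any of the 5 comparisons, and their values spread far more than those of the rest. Hdac5 ranged from 21.5 to 51.4 FPKM in sedentary mice with a median of 40.8, and from 17.6 to 49.1 in 14-0-0 with a median of 30.8. Its medians in the other groups lay between 29.8 in 14-14-0 and 34.1 in 14-7-0, and the groups overlapped widely. The log2 differences of Hdac5 from sedentary were all negative, from -0.28 to -0.12, with 95% intervals from -0.70 to 0.26 and unadjusted p from 0.158 to 0.526. Those of Hdac4 were also all negative, from -0.22 to -0.03, with unadjusted p from 0.178 to 0.843. Hdac4 ranged from 3.26 to 8.29 FPKM in sedentary mice (median 6.13) and from 3.58 to 7.06 in 14-0-0 (median 4.64). The lowest of those sedentary values was that of replicate 6, and without it the 14-0-0 difference of Hdac4 became -0.31 (limma, p = 0.043). Hdac7 ranged from 3.89 to 7.40 FPKM in sedentary mice (median 4.82), and its differences ran from -0.14 to 0.02, with unadjusted p of at least 0.206. The 95% intervals reached down to -0.70 for Hdac5, -0.61 for Hdac4 and -0.43 for Hdac7.

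Ncor1, the scaffold that joins HDAC3 to nuclear receptors, had group means close to each other once 1 library was set aside. Sedentary libraries ranged from 21.35 to 49.1 FPKM with a median of 43.5, and the lowest was replicate 6. The other 9 ranged from 32.7 to 49.1 with a mean of 43.1 ± 4.56 (SD), inside which the 5 exercise group means of 41.7 to 43.3 fell. With all libraries the log2 differences of Ncor1 were 0.06 to 0.11, with unadjusted p from 0.354 to 0.607 and 95% intervals of -0.18 to 0.35. Of the further genes of the NCoR complex described here, Gps2, a subunit known for restraining JNK signalling, was called. It was lower in 14-7-0, at 12.1 ± 1.43 FPKM against 13.7 ± 1.54 (limma, log2 difference -0.18, unadjusted p = 0.0287), and in 14-7-2, at 11.9 ± 1.60 (-0.20, p = 0.0206). The differences of Tbl1x and Tbl1xr1, the WD40 subunits of the complex, and of Cops2 were not called in any of the 5 comparisons.

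Training without exercise was compared with the home cage. This called 2.30% of all genes and none of the 9 members. Class I differences ran from -0.08 for Hdac1 to 0.01 for Hdac3. Hdac5 had the widest gap, at 38.3 ± 11.8 FPKM in sedentary and 31.5 ± 9.35 in home cage mice, a log2 difference of 0.27 ± 0.19 (limma, unadjusted p = 0.185).

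Comparisons among exercise groups asked whether these messages separate the schedules that enabled learning from those that did not. None of the 9 members was called in 14-7-2 against 14-7-0, where 5.39% of all genes were, in 14-0-0 against 14-7-0, with 5.63%, or in the 2 enabling schedules against the other 3, with 4.43%. Across these 27 differences class I values ran from -0.11 to 0.12, class IIa values from -0.07 to 0.13 and Ncor1 from 0.03 to 0.04. The smallest p was that of Hdac8 in 14-7-2 against 14-7-0, at 6.93 ± 0.341 against 7.52 ± 0.702 FPKM (limma, log2 difference -0.11 ± 0.05, unadjusted p = 0.0521). The lowest of those 14-7-0 values, 6.001 FPKM, came from the shallow replicate 4, and without it the difference was -0.15 (p = 0.00308). In this comparison 3 of 7 oligodendrocyte, 2 of 4 oligodendrocyte precursor, 3 of 5 CA1 and 3 of 6 inhibitory neuron markers were lower and 2 of 6 CA3 markers higher, and their part in the Hdac8 difference was not tested. For Hdac2 in the enabling against the other schedules the difference was 0.04 ± 0.04 with a 95% interval of -0.03 to 0.12, and for Hdac3 it was 0.06 ± 0.03 with an interval of -0.01 to 0.13.

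Harvest cohort was compared over all groups. Cohort 2 was below cohort 1 for Hdac8, at 7.22 against 7.60 FPKM (limma, log2 difference -0.07 ± 0.03, unadjusted p = 0.0405), and for Hdac9, at 9.34 against 9.88 (-0.08 ± 0.04, p = 0.0449). That was 2 of 9 members in a comparison that called 11.9% of all genes, with adjusted p of 0.389 and 0.403, where 0.585% of all genes had an adjusted p under 0.05. The Hdac9 call was lost without sedentary replicate 6 (p = 0.0663) and without 14-7-0 replicate 4 (p = 0.055), and without the latter Hdac2 was called (-0.07, p = 0.0316). Cohorts were balanced over the groups, and with cohort as a covariate the Hdac8 and Hdac9 calls held except Hdac9 in 14-7-2 (p = 0.0544).

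Within groups, the members varied together in a definite pattern. After group-by-cohort means were removed, and without the 2 libraries that stood apart, the SD of Hdac5 was 0.45 on the log2 scale, that of Hdac4 was 0.40 and that of Hdac7 was 0.31. These lay at the 91.0, 88.3 and 78.6 percentiles of all genes tested, whose median SD was 0.20. The 6 other members had SDs of 0.12 to 0.15, at percentiles of 11.8 to 27.4. Hdac4 and Hdac5 rose and fell together across the 68 libraries, with r = 0.66 (Spearman 0.63), and with nearly the same r in cohort 1 (0.67) and cohort 2 (0.66). Hdac1 ran against both, with r = -0.72 with Hdac5 and r = -0.71 with Hdac4, and Hdac2 ran against Hdac4 with r = -0.70 and Hdac5 with r = -0.57. Hdac3 also ran against both, with r = -0.59 for each. Hdac1 and Hdac2, which share their complexes, had r = 0.57. Hdac8 had no r with another member beyond -0.26, that with Hdac9, and Ncor1 had its highest r with Hdac4, at 0.35. These points share a library each, and with it RNA quality, depth and base composition, so the values are descriptions of the libraries.

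**Figure D3:**
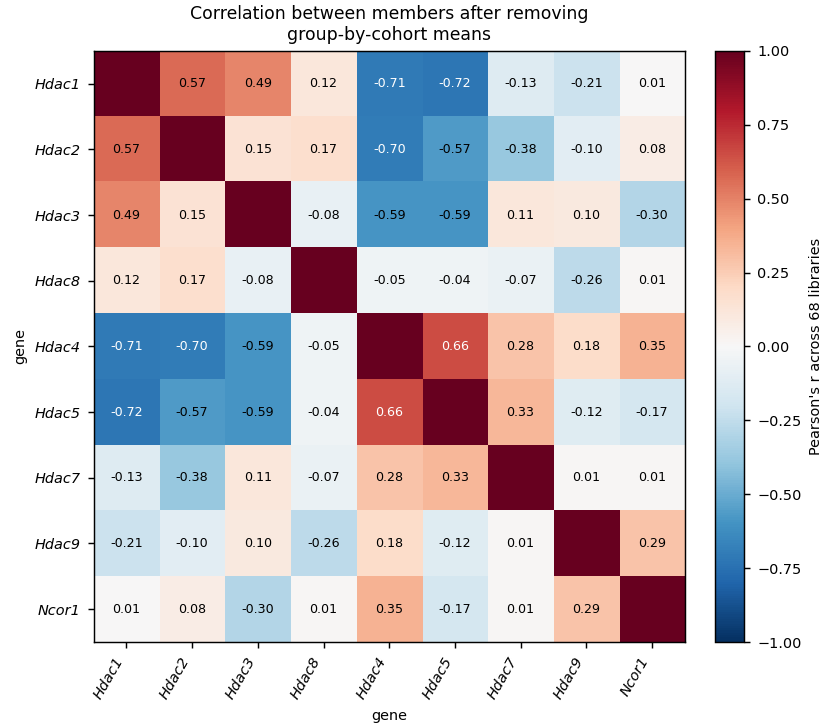
Pearson's r between each pair of the 9 members (both axes) across 68 libraries after group-by-cohort means were removed, on a colour scale from -1 (blue) to 1 (red). A red cell joins Hdac4 and Hdac5 (r = 0.66), and blue cells set both against Hdac1 (-0.71 and -0.72), Hdac2 (-0.70 and -0.57) and Hdac3 (-0.59 for each).

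Base composition moved with this pattern. A GC index was computed for each library as the median log2 deviation of the 20% of genes richest in GC less that of the 20% poorest, and it ranged from -0.92 to 0.78. Across the 68 libraries Hdac5 followed it with r = 0.91 (Spearman 0.88), and with r = 0.88 when the 2 most extreme libraries were left out. Within cohort 1 the r was 0.89 and within cohort 2 it was 0.92. Hdac4 had r = 0.49 and Hdac7 0.35, while Hdac1 had -0.57, Hdac2 -0.56, Ncor1 -0.43, Hdac3 -0.38, Hdac9 -0.27 and Hdac8 -0.13. The Hdac7 value was not steady, with r = 0.02 in cohort 1, 0.56 in cohort 2 and 0.20 without the 2 most extreme libraries. The longest coding transcript of Hdac5 is 58.8% GC, at percentile 91.7 of the genes tested, and that of Hdac7 is 58.9%. Those of Hdac4, Hdac9 and Hdac2 are 52.5%, 45.0% and 41.9% GC. Those of Hdac8 and Ncor1 are 48.7% and 48.5% GC, and those of Hdac1 and Hdac3 lie at percentiles 48.9 and 50.2. The order of the r values did not follow transcript GC throughout, as Hdac1, near the middle in GC, had the most negative r. With the index as a covariate the Hdac5 difference went from -0.28 to -0.04 in 14-0-0 and to -0.12 in 14-14-0, and over the 5 groups it lay between -0.12 and 0.00. With the choroid plexus score instead, it was -0.02 in 14-0-0 and -0.08 in 14-14-0, in fits that extend beyond the sedentary scores. In the GC fit the Hdac8 difference stayed at -0.19 in 14-7-2 (limma, p = 0.00282) and in 14-14-0 (p = 0.00695). The Hdac9 difference was 0.17 in 0-0-2 (p = 0.00798), 0.15 in 14-0-0 (p = 0.0543) and 0.13 in 14-7-2 (p = 0.0945), so of the 3 Hdac9 calls the one in 0-0-2 remained.

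**Figure D4:**
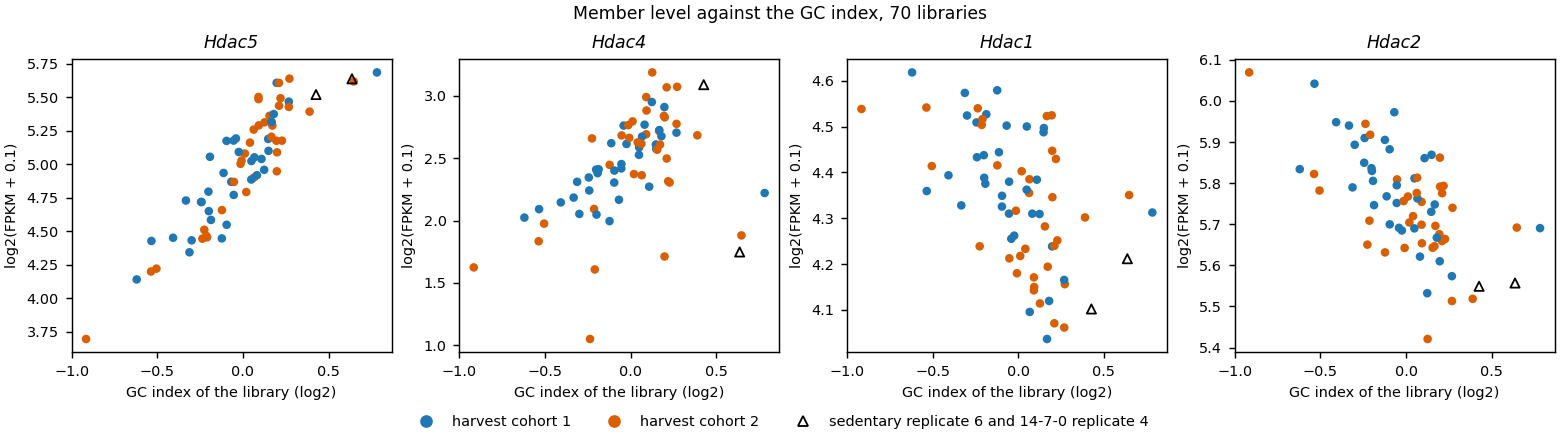
log2(FPKM + 0.1) of Hdac5, Hdac4, Hdac1 and Hdac2 (y axes) against the GC index of the library (x axes, log2 units), 1 point per library, coloured by harvest cohort, with triangles for sedentary replicate 6 and 14-7-0 replicate 4. Hdac5 climbs with the index over its whole range of -0.92 to 0.78, Hdac4 climbs more loosely, and Hdac1 and Hdac2 fall.

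The promoters of Hdac4 (GRCm38.p6, chr1:92180292-92180591, minus strand) and Hdac5 (chr11:102230123-102230422, minus strand) are shown because these genes varied together, with GGGCGG, or CCGCCC where it lies on the other strand, and TGACG in capitals. The Hdac4 window is at the 1 start listed for it, which lies inside the annotated gene (chr1:91928779-92195699) and not at its upstream end. It is 68% GC with 32 CG dinucleotides, 5 matches to GGGCGG and 3 to TGACG. The Hdac5 window is 60.7% GC with 18 CG dinucleotides, 1 match to GGGCGG and 2 to TGACG, and neither window holds the full TGACGTCA. High GC and GGGCGG were not particular to this pair. The windows of Hdac2 and Ncor1 are 69.7% and 72.3% GC, each with 36 CG dinucleotides, and hold 1 and 2 matches to GGGCGG. That of Hdac7 is 54.7% GC with 6 CG dinucleotides and 0 matches. None of these 3 windows holds TGACG.
Hdac4: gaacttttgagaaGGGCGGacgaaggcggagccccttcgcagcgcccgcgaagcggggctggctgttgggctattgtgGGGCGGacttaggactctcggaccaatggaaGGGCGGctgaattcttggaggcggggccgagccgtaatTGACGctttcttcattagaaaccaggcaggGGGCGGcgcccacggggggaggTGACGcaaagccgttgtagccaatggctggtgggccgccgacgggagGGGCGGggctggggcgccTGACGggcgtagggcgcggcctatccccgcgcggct
Hdac5: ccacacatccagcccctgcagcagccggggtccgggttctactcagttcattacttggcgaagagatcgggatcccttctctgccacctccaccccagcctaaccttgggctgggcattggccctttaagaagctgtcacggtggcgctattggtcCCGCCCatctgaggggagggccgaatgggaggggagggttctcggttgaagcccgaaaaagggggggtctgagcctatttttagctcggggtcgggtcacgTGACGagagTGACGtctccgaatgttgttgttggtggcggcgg

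The genes whose residual pattern was most like each member were found over the same 68 libraries. Hdac5 was closest to Tnk2 (r = 0.98) and Pik3r2 (0.97), and Hdac4 to Shank2 (0.93), a postsynaptic scaffold gene, and Pcdh1 (0.92). Hdac7 was closest to Lrrc45 (0.93) and Fam193b (0.91). Transcripts of these genes were 55.0% (Shank2) to 61.4% (Pik3r2) GC. Ncor1 was closest to Frrs1l (r = 0.91), an AMPA receptor assembly factor, and Kcnj6 (0.90), a potassium channel gene. Hdac2 was closest to Eif3e (0.85) and Npm1 (0.84), genes of translation and of the nucleolus, and Hdac3 to Foxred1 and Inpp5e (both 0.76). Hdac1 was closest to Timm21 (0.79) and B4galt4 (0.74), Hdac9 to Slc8a1 (0.69) and Reps2 (0.68), and Hdac8 to Rab8a (0.57) and Hnrnph3 (0.56). The most opposite genes were Ddx20 for Hdac5 (r = -0.87), C1qbp for Hdac4 (-0.87), Pcdh10 for Hdac1 (-0.80), Adcy3 for Hdac2 (-0.80), Oxct1 for Hdac7 (-0.75), Tmem28 for Hdac3 (-0.75), Cyc1 for Ncor1 (-0.73), Creld2 for Hdac9 (-0.62) and LOC432842 for Hdac8 (-0.48).

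The other genes of the deacetylase pathway were few among the calls. Of 81 tested genes for further deacetylases, Sin3, NuRD, CoREST and NCoR complexes, class IIa partners and kinases, and histone acetyltransferases, 5 were lower and 0 higher in 14-0-0. The counts were 4 lower and 0 higher in both 14-7-0 and 14-14-0, 4 lower and 1 higher in 14-7-2, and 0 in either direction in 0-0-2 (limma at an unadjusted p of 0.05, with no adjusted p under 0.05). Class IIb and IV genes Hdac6, Hdac10 and Hdac11 had no call in these comparisons. That was 6.17% of the list in 14-0-0 and 14-7-2 and 4.94% in 14-7-0 and 14-14-0, beside 9.15%, 4.39%, 3.26% and 4.95% of all genes. Without sedentary replicate 6 the counts were 2 lower in 14-0-0 (2.47% of the list, 10.3% of all genes), 1 lower and 0 higher in 14-7-2 (1.23% and 3.58%), 3 lower in both 14-7-0 and 14-14-0, and 0 in 0-0-2. The median log2 difference of the list lay between -0.04 and -0.01. Sap130, a Sin3 complex subunit, was lower in 14-0-0, at 9.14 ± 0.851 against 10.2 ± 0.969 FPKM (log2 difference -0.15, unadjusted p = 0.0295). In 14-7-0 Mier2, a corepressor that binds HDAC1 and HDAC2, was lower (-0.39, p = 0.0153), and so was Kat2a, a histone acetyltransferase of the opposing kind (-0.15, p = 0.0225). Sirt3, the mitochondrial deacetylase, was lower in 14-14-0 (-0.13, p = 0.0272), as was Suds3 of the Sin3 complex (-0.11, p = 0.0378). The gene that was higher in 14-7-2, named after its values were seen, was Ywhab, which encodes one of the 14-3-3 proteins that hold phosphorylated class IIa enzymes in the cytoplasm (0.16, p = 0.0408), a call lost without sedentary replicate 6 (0.11, p = 0.0619). The calls of Sap130, Mier2, Kat2a, Sirt3 and Suds3 held without that library.

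A list of 8 activity-regulated genes known as targets of deacetylase repression in memory, among them Egr1, Fos, Arc and Bdnf, was set beside the members. Of these 8 genes, 5 were lower in 14-0-0, 4 in 14-7-0, 6 in 14-7-2, 4 in 14-14-0 and 3 in 0-0-2, and 0 were called higher, which is 62.5%, 50%, 75%, 50% and 37.5% of the list beside 9.15%, 3.26%, 4.39%, 4.95% and 2.37% of all genes. Without sedentary replicate 6 the counts were 6 lower and 1 higher in 14-0-0, and 3, 7, 5 and 3 lower with 0 higher in the others. Their median log2 difference lay between -0.52 and -0.30, where that of all genes lay between -0.01 and 0.01. The list was chosen with earlier results of these data known, and all 5 comparisons share the same sedentary libraries. These shares are therefore descriptions and are not independent of each other. Egr1 was at 71.3 ± 19.9 FPKM in sedentary mice and 43.7 ± 7.08 in 14-7-2 (limma, log2 difference -0.67, unadjusted p = 0.000139, adjusted p = 0.847). In home cage mice it was at 58.9 ± 20.7 FPKM. Of the 8 genes, 1 was called in sedentary against home cage mice, where it was higher in sedentary mice. Bdnf, singled out after its values were seen, had log2 differences of 0.21 to 0.63 from sedentary that were not called by limma. The study, with Cyber-T on FPKM at an uncorrected p under 0.05, lists Bdnf as up-regulated in 14-0-0 and 14-7-2 against sedentary. Test and scale thus differ from those used here. Bdnf was higher in the 2 enabling schedules than in the other 3, at 22.7 against 19.3 FPKM (limma, 0.25, p = 0.00183, adjusted p = 0.913). Bdnf in sedentary replicate 6 was 1.18 FPKM, and without that library its difference in 14-0-0 was 0.24 (limma, p = 0.0381). Medians, which 1 library moves less, did not place every exercise group above sedentary. The sedentary Bdnf median of 20.7 FPKM lay above those of 14-7-0 (19.9) and 14-14-0 (18.2). It lay below those of 14-0-0 (22.5), 0-0-2 (21.2) and 14-7-2 (21.1).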

How the data were processed

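RNA from 70 dorsal hippocampi (poly-A selected, single reads) was analysed from the gene table that the authors deposited as FPKM, made with Bowtie and Cuffnorm on mm10 per the labels and the study's methods. The table holds no read counts, and depths were not matched to its libraries, so no counting intervals are given. Whether strand was used is not given in the sources used here. The 12994 of 24346 genes whose mean reached 1 FPKM were kept. Values were tested as log2(FPKM + 0.1) with limma 3.58.1 (trend, two-sided, R 4.3.3) on the libraries of the groups compared, called at an unadjusted p of 0.05, and adjusted by Benjamini-Hochberg over all genes tested. Fold changes are on that log2 scale, which understates changes of low genes. The fit was tested on simulated data. In the 14-0-0 design it called 61 of 100 genes changed by 0.25 and 90 of 100 changed by 0.5 on the log2 scale, and 660 of 12794 unchanged genes. The changed genes were drawn at random from all genes tested, with noise independent between genes. These shares are therefore not those of any 1 member, whose spreads differ. Nothing in the labels ties libraries to shared animals, and 0 pairs of libraries were identical.

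The members and gene lists were chosen with earlier results of these data known. Other genes were named by rule: per comparison with sedentary, at most the 6 listed genes of smallest p among those called, and per member the 2 genes most alike and the 1 most opposite, by r after group-by-cohort means were removed. Exceptions are stated, and 1 listed gene is not reported here. Alternatives were another pseudocount, no filter, median-ratio scaling, a joint fit, a replicate block, harvest cohort as a covariate or alone, a Cyber-T formula on FPKM (window of 101 genes, prior df of 10) and leaving out libraries. The GC index and choroid plexus covariates, and leaving out each library, were chosen after seeing the data. GC content came from GENCODE transcripts, and promoter sequences from RefSeq (GRCm38.p6), in which 7 of 9 members were matched. Tables were made with Python 3.11.15, pandas 2.3.3 and numpy 2.4.6.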

Additional observations from a re-analysis of the deposited data

Results flagged for a closer look

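Among 63 sets of 10 libraries (9 genes in 7 groups), 2 held a library far from the rest by Dixon's criterion, which chance alone marks in about 1 of 20 sets, or 3.15 here. Hdac2 in home cage replicate 7 was 42.74 FPKM, the lowest of all 70 libraries, where the home cage median was 54.65 and the highest 59.83. Ncor1 in home cage replicate 5 was 34.93 FPKM, where the home cage median was 43.73 and the highest 44.59. Both libraries enter the comparison of sedentary with home cage mice alone among those between groups, in which neither gene was called (limma, unadjusted p = 0.299 for Hdac2 and 0.452 for Ncor1).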

How the results depend on the processing

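Of 1026 gene values under alternatives other than leaving out each library, 992 kept their direction or stayed uncalled, 18 lost a call, 16 gained one and 0 called values changed sign. The number of members called in 14-0-0 (1 with the settings of the report) was 0 in cohort 2 alone and 0 with the GC index as a covariate. In 14-7-0 (0) it was 1 with the choroid plexus covariate. In 14-7-2 (2) it was 1 with cohort as a covariate, in cohort 1 alone and with the GC index (Hdac8 in each), 1 in cohort 2 alone, where it was Hdac2 and neither Hdac8 nor Hdac9, and 0 by Cyber-T. In 14-14-0 (1) it was 0 in cohort 2 alone. In 0-0-2 (1) it was 2 with median-ratio scaling and in the joint fit, and 0 by Cyber-T and in either cohort alone. In 14-7-2 against 14-7-0 (0) it was 1 with no filter, with scaling, and with the GC or choroid plexus covariate. In 14-0-0 against 14-7-0 (0) it was 1 with the choroid plexus covariate, and in the enabling against other schedules (0) it was 1 in cohort 1 alone. Between cohorts (2) it was 0 with scaling. Where a cohort was taken alone, fewer libraries entered, and the cause of the other changes was not tested.

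With each library left out in turn, members called ranged from 1 to 2 in 14-0-0, 0 to 1 in 14-7-0, 1 to 2 in 14-7-2, 1 to 1 in 14-14-0 and 1 to 2 in 0-0-2. Without sedentary replicate 6 the count was 2 in 14-0-0 and 1 in 14-7-2, and between cohorts it was 1 (Hdac8), or 2 without 14-7-0 replicate 4 (Hdac8 and Hdac2). The 14-7-0 count was 1 without 14-7-0 replicate 9. The 0-0-2 count was 2 without sedentary replicate 5 or 8 or without 0-0-2 replicate 2, 3 or 8. In 14-7-2 against 14-7-0 it was 1 without 14-7-0 replicate 4. Of 54 tests of a difference between cohorts, 0 had p under 0.05 by limma, and 1 did without sedentary replicate 6, that of Ncor1 in 14-0-0 (-0.30, p = 0.0439, adjusted p = 0.663).

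Same-numbered libraries deviated together, with a correlation over 0.1, in 2 to 5 of 10 pairs. The medians over pairs ran from -0.06 to 0.14, and 1 pair in 14-7-2 against 14-7-0 reached 0.53. With no reference value for unpaired libraries, these correlations cannot decide whether same-numbered libraries share more than a number. With a replicate block, members called were 2 in 14-0-0, 2 in 14-14-0 and 1 in 14-0-0 against 14-7-0. In 14-0-0 the block called 1882 of all 12994 genes tested, against 1189 without it, the highest count of the alternatives. Under any alternative at most 1208 genes were called in 14-14-0 and 1193 in 14-0-0 against 14-7-0. Hdac5 was among those called lower in 14-0-0 (limma, p = 0.0159) and in 14-14-0 (p = 0.0372).

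The number of all genes called in 14-0-0 ranged from 611 to 1882 around 1189 over the alternatives, in 14-7-0 from 177 to 896 around 424, in 14-7-2 from 246 to 1082 around 571, in 14-14-0 from 146 to 1208 around 643 and in 0-0-2 from 177 to 597 around 308. It ranged from 96 to 679 around 299 for sedentary against home cage, from 453 to 1058 around 700 for 14-7-2 against 14-7-0, from 270 to 1193 around 732 for 14-0-0 against 14-7-0 and from 314 to 867 around 575 for the enabling schedules.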
